A study of Mus musculus with 8 samples.

Results

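The genes described are the E proteins Tcf3, Tcf4 and Tcf12, the inhibitors Id1, Id2 and Id3, and Lyl1, Tal1, Lmo2 and Ldb1, whose products form the LMO2 complex. They were chosen by symbol, and all 10 were found among the 39179 Ensembl gene IDs of each library. RNA was sequenced from C57BL/6 mouse bone marrow common lymphoid progenitors (CLPs), progenitors of B, T, natural killer and innate lymphoid cells. The ex vivo CLP group (4 libraries) was sorted fresh, and the cCLP group (4 libraries) came from cells kept for 2 months with Flt3 ligand and little IL-7 over the mouse stromal line OP9. Both sorts took lineage-negative cells that were positive for IL-7 receptor, Flk2 and CD27 and negative for Ly6d. No genotype, agent or allele other than this culture separated the groups, and no label gave an animal, its age, or a separate culture, so p-values measure only the spread between libraries.

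E proteins are basic helix-loop-helix transcription factors that bind E-box motifs as dimers, and in lymphoid progenitors they are needed for the B and T cell programmes. Id proteins lack the basic region that contacts DNA, and by pairing with E proteins they keep them off their sites. TAL1 and LYL1 are tissue-restricted relatives that bind DNA as partners of E proteins, and LMO2 and LDB1 bridge such dimers to each other and to GATA factors in blood stem and progenitor cells. LMO2, LYL1 and TAL1 are also known from T cell leukaemia, where they are switched on in immature thymocytes.

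Genes carry whole numbers on a scale that no label names, called scores here. The scores are not read counts, so depth is unknown, and a value of 0 is reported as listed at 0. Between cCLP 3 and 4 the spread of genes with scores from 5 to 50 (squared difference over its sampling expectation, at least 1 on average for counts) was 0.568 in the shortest of 4 length classes of genes (median exonic length 2024 bases) and 0.100 in the longest (9080 bases), and its product with the length in kilobases was 0.881 to 1.15 over the 4 classes. That is the pattern of a value divided by gene length. Between ex vivo CLP 3 and 4 the spread was 0.614 to 0.691 with no such fall, so an order of levels between genes holds only as far as the scores are per length. Scores summed to 378594 to 704305 per library and were divided by a library factor, which gives the scaled values below. A run of 4 values follows replicates 1 to 4. By profile, the library labelled ex vivo CLP 2 and that labelled cCLP 1 lay with the other group. Over tested genes other than these 10, Spearman's rho of ex vivo CLP 2 was 0.959 to 0.987 with cCLP 2 to 4 and 0.737 to 0.801 with ex vivo CLP 1, 3 and 4. For cCLP 1 it was 0.947 to 0.979 with ex vivo CLP 1, 3 and 4 and 0.781 to 0.793 with cCLP 2 to 4. Tests of the members are therefore given over all 8 libraries as labelled and over the 6 without these libraries. Fold changes of other genes are given mainly over the 6, and none of those genes was called over the 8. Because the profiles decided which 6 to keep, p-values over them are conditional on that choice. The gate genes Il7r, Flt3 and Cd27 were above 0 in every library. Il7r was far from even, with scores of 61, 193, 14 and 24 in the ex vivo libraries and 28, 213, 204 and 256 in the cultured ones. The scores of Ly6d were 28, 0, 28 and 41 in the ex vivo libraries and 22, 1, 1 and 1 in the cultured ones.

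Promoter windows from RefSeq (GRCm38.p6, 250 bases before to 50 after its gene start) are shown for members whose values set them apart: Lyl1 and Ldb1, which rose over the 6 libraries, and Id2 and Id3, an Id gene present in every library and one listed at 0 in most. Capitals mark E-boxes (CANNTG, a motif that is its own reverse complement).
Lyl1 (chr8:84701207-84701506, plus strand): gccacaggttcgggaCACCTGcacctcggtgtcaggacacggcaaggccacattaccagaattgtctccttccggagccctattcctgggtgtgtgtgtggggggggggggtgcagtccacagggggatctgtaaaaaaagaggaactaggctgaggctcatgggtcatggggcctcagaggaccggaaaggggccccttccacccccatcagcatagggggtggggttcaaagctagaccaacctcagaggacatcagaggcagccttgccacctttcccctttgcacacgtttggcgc
Ldb1 (chr19:46045262-46045561, minus strand): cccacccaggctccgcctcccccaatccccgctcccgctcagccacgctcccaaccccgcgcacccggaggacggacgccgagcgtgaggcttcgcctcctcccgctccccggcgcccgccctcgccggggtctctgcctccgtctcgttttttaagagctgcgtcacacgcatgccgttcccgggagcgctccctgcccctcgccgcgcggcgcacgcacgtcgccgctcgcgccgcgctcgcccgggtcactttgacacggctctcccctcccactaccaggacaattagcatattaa
Id2 (chr12:25096043-25096342, minus strand): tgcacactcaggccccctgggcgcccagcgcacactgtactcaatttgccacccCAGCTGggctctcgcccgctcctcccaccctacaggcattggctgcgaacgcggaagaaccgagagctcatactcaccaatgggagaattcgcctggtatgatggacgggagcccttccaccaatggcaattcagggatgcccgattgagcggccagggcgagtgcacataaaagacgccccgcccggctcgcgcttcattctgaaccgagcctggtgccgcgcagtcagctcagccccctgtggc
Id3 (chr4:136143572-136143871, plus strand): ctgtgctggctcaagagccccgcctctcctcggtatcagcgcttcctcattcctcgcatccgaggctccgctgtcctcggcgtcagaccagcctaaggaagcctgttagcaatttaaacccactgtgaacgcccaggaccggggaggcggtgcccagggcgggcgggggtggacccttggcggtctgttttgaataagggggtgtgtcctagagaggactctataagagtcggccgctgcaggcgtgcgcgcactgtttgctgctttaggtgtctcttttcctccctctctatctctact
The Lyl1 window held a CACCTG and the Id2 window a CAGCTG, while the Ldb1 and Id3 windows held no CANNTG. Windows were read for 7 members, and those of Tcf3, Tcf12 and Tal1 held 1 CANNTG each, in Tcf12 as CAGCTG. Among all 32851 windows of this length, 72.3% held CANNTG, 16.3% CAGCTG and 20.2% CAGGTG or its reverse complement CACCTG. Each CAGCTG or CACCTG is also a CANNTG. Id1, Lmo2 and Tcf4 are not shown.

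Over the 8 libraries as labelled, no member passed the adjusted test between the groups. Of the 10, 7 passed the filter (scaled value of at least 10 in at least 4 libraries), and Id1, Id3 and Tal1 did not. With limma's moderated test on log2(scaled value + 1) and Benjamini-Hochberg adjustment over 6486 genes, 0 of the 7 were called at adjusted p below 0.05, as were 0% of all genes tested. At an unadjusted p below 0.05 there were 477 genes, and Lyl1 was the member among them (log2 fold change, cCLP minus ex vivo CLP, 0.49 ± 0.20 SE, adjusted p = 0.484). The 95% confidence intervals of the log2 fold change ran from -0.28 to 0.27 for Tcf3 and from -0.27 to 0.28 for Tcf12, and from -1.56 to 0.20 for Lmo2. Of the 7 tested members, 0 had groups that did not overlap, against 3.48% of all genes (1.87% higher and 1.62% lower in cCLP).

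Over the 6 libraries, members of the LMO2 complex changed in opposite directions. Lmo2 fell 2.45-fold, Lyl1 rose 1.74-fold and Ldb1 rose 1.48-fold, while the E proteins and Id2 were not called. The same 7 members passed the filter, here a scaled value of at least 10 in at least 3 libraries. Of these, 2 were called higher, against 20.9% of the 6573 genes tested, and 1 lower, against 22.2%. With either direction called for 43.1% of all genes, 3 of 7 is near the background and is no result about the members as a set. The groups did not overlap for 4 of the 7 (Lmo2, Lyl1, Ldb1 and Id2), against 55.8% of all genes (27.6% higher and 28.1% lower in cCLP). Without cCLP 4, 888 genes in place of 1371 were called higher.

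**Figure D1:**
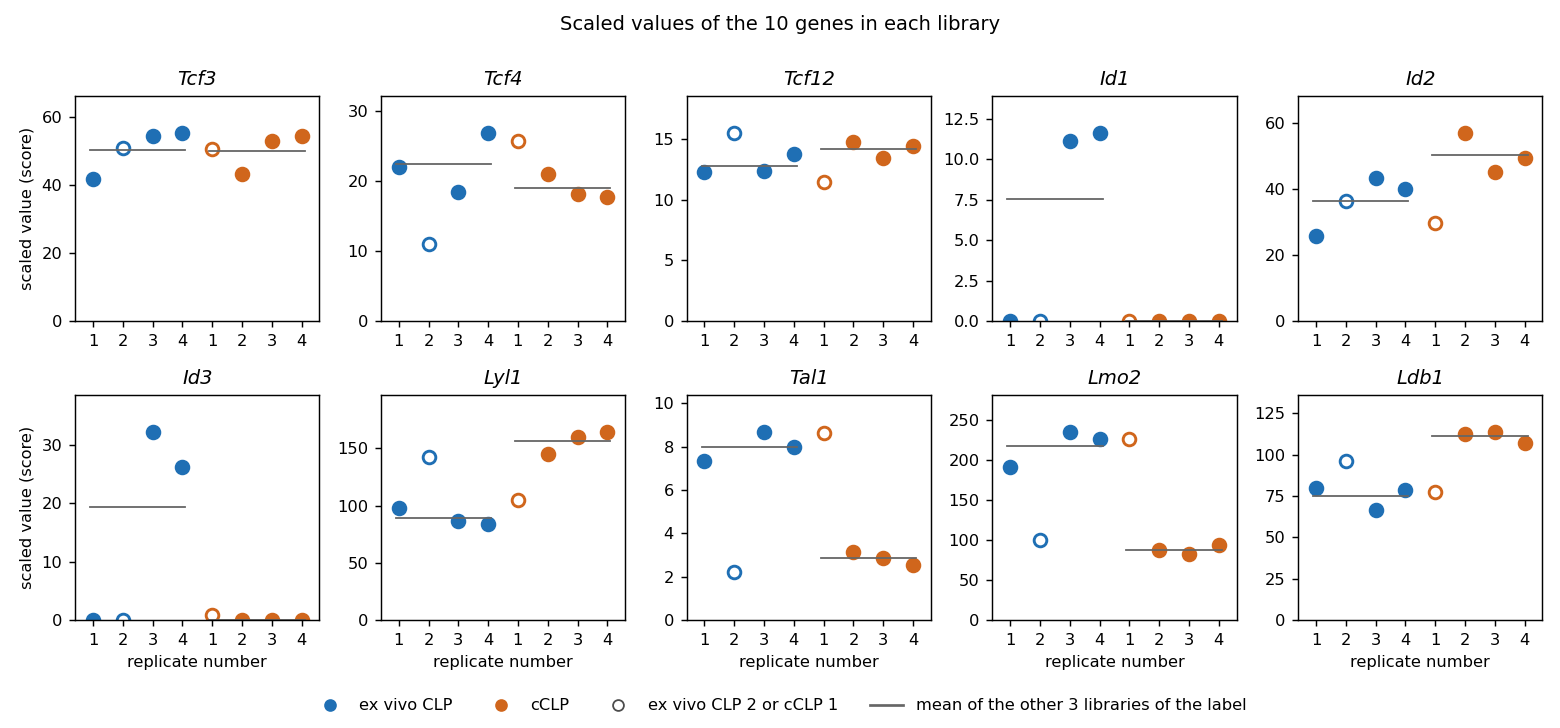
Scaled value (score, vertical axis from 0) of each of the 10 genes in each library, by replicate number; blue points are ex vivo CLP, orange points cCLP, open points ex vivo CLP 2 and cCLP 1, and grey lines the mean of the other 3 libraries of each label. For Lmo2, Tal1 and Lyl1 the open points lie with the other label, while Tcf3 lies between 41.7 and 55.2 in all 8 libraries and Id1 and Id3 are above 1 in ex vivo CLP 3 and 4 only.

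Tcf3 encodes the E proteins best known from early B cell development. Its scaled values were 41.7, 50.9, 54.4 and 55.2 in the ex vivo libraries and 50.7, 43.2, 52.8 and 54.3 in the cCLP libraries. The groups overlapped throughout. Over the 6 libraries the means were 50.4 ± 7.59 (SD, n = 3) and 50.1 ± 6.06, with a log2 fold change of -0.0049 ± 0.14 (SE; 95% interval -0.33 to 0.32, limma adjusted p = 0.98). The sign of this near-zero value turned with the scaling (0.050 with the upper quartile, 0.034 with totals).

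Tcf12 encodes HEB, an E protein used in thymocyte development. It was at 12.3, 15.5, 12.4 and 13.8 in the ex vivo libraries and at 11.5, 14.7, 13.4 and 14.4 in the cCLP libraries. The lowest value belonged to cCLP 1 and the highest to ex vivo CLP 2, the libraries that lay with the other group. Without ex vivo CLP 2 and cCLP 1 it was at 12.8 ± 0.865 (SD, n = 3) and 14.2 ± 0.675, which the test did not separate (log2 fold change 0.14 ± 0.10 SE, 95% interval -0.10 to 0.38, limma adjusted p = 0.313).

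Tcf4 encodes the E protein that plasmacytoid dendritic cells depend on. It was at 22.1, 11.1, 18.5 and 26.9 in the ex vivo libraries and at 25.8, 21.1, 18.3 and 17.8 in the cCLP libraries. The lowest of the 8 was ex vivo CLP 2, below each of cCLP 2 to 4, with which its whole profile lay. The log2 fold change was 0.13 ± 0.25 (SE) over 8 libraries and -0.22 ± 0.14 over 6 (limma adjusted p = 0.785 and 0.260), so its direction depended on ex vivo CLP 2 and cCLP 1. Without ex vivo CLP 2 alone it was -0.11. The 9 plasmacytoid dendritic cell markers summed to 528, 293, 609 and 621 in the ex vivo libraries and to 505, 377, 500.5 and 418 in the cCLP libraries and went both ways. Siglech ranged from 35.6 to 47.8 over ex vivo CLP 1, 3 and 4 and from 1.05 to 3.84 over cCLP 2 to 4. Irf8 (143 to 182 and 4.24 to 6.72) and Bst2 (135 to 199 and 37.4 to 49.0) were also lower over the latter. So were Runx2 (15.9 to 23.3 and 1.92 to 2.55) and Spib (2.45 to 3.71 and 0). By contrast Cox6a2 ranged from 66.1 to 83.4 and from 204 to 316, and Ptprs from 20.8 to 29.1 and from 39.1 to 42.1. Clec12a overlapped, and Klk1 was listed at no more than 1 in any library. None of the 9 was listed at 0 in all libraries, and their part in the Tcf4 values was not tested. The summed scaled value of the 3 E protein genes stayed between 76.0 and 95.9 in the 8 libraries.

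Id2, known for its role in innate lymphoid and natural killer cells, was at 25.7, 36.5, 43.3 and 40.0 in the ex vivo libraries and at 29.7, 56.9, 45.1 and 49.2 in the cCLP libraries. All of cCLP 2 to 4 were above all of the ex vivo libraries, and cCLP 1 was not. The means over the 6 libraries were 36.3 ± 9.31 (SD, n = 3) and 50.4 ± 5.94, a log2 fold change of 0.49 ± 0.19 (SE; 95% interval 0.048 to 0.93, limma adjusted p = 0.0716). Leaving out ex vivo CLP 3 brought it past the threshold (adjusted p = 0.0380), as did scaling by totals (0.0474) or the upper quartile (0.0498). A block for the replicate number, which leaves the contrast to replicates 3 and 4 of each group, gave 0.484. Over all 8 libraries it was 0.29 ± 0.23 (adjusted p = 0.506). Of 12 natural killer and innate lymphoid cell markers, 4 (Ncr1, Eomes, Tbx21 and Il1rl1) were listed at 0 in every library, and the sum of the list was 69.2 to 79.2 in ex vivo CLP 1, 3 and 4 and 35.8 to 48.4 in cCLP 2 to 4. Within the list Nkg7 ranged from 44.1 to 61.8 over the former and from 4.21 to 11.5 over the latter, and Klrd1 went the other way, from 11.6 to 17.2 and from 28.4 to 39.9. Their part in the Id2 values was not tested.

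Because Id proteins act by pairing with E proteins, the log2 ratio of (score + 1) of Id2 to that of each E protein was taken within each library, where it does not depend on the library factor. It carries no test. The Id2 to Tcf3 ratio was -0.67, -0.47, -0.32 and -0.46 in the ex vivo libraries and -0.75, 0.39, -0.22 and -0.14 in the cCLP libraries. In the 6 libraries the group means differed by 0.49, with SDs of 0.18 and 0.33 (n = 3), and the groups were apart. The Id2 to Tcf4 ratio was also apart, with a difference of 0.71 and SDs of 0.49 and 0.084, and the Id2 to Tcf12 ratio was not (0.36, with SDs of 0.36 and 0.10). Over the 8 libraries as labelled the differences were 0.30, 0.17 and 0.30, each with overlapping groups, and that for Tcf4 turned to -0.052 without ex vivo CLP 1.

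Id1 and Id3 followed neither the labels nor the split of the profiles. Id3, which restrains E proteins in developing lymphocytes, was listed at 0, 0, 26 and 36 in the ex vivo libraries, and at 1, 0, 0 and 0 in the cultured ones. Id1, an early target of bone morphogenetic protein signals, was listed at 0, 0, 9 and 16 in the ex vivo libraries and at 0 in all cCLP libraries. Both were thus present in ex vivo CLP 3 and 4 and at or near 0 in the other 6 libraries, ex vivo CLP 1 among them. Neither passed the filter, and an exact two-sided permutation test over the 8 libraries gave p = 0.429 for each (the smallest p possible is 0.0286). With ex vivo CLP 1 left out of the 6, the filter asked for fewer libraries, and limma called both lower. They entered that test only through ex vivo CLP 3 and 4, which fixed their direction, so the calls add nothing to the values. The summed Id level of ex vivo CLP 3 and 4 (86.5 and 77.7) accordingly exceeded that of ex vivo CLP 1 (25.7), cCLP 1 (30.6) and cCLP 2 to 4 (45.1 to 56.9).

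**Figure D2:**
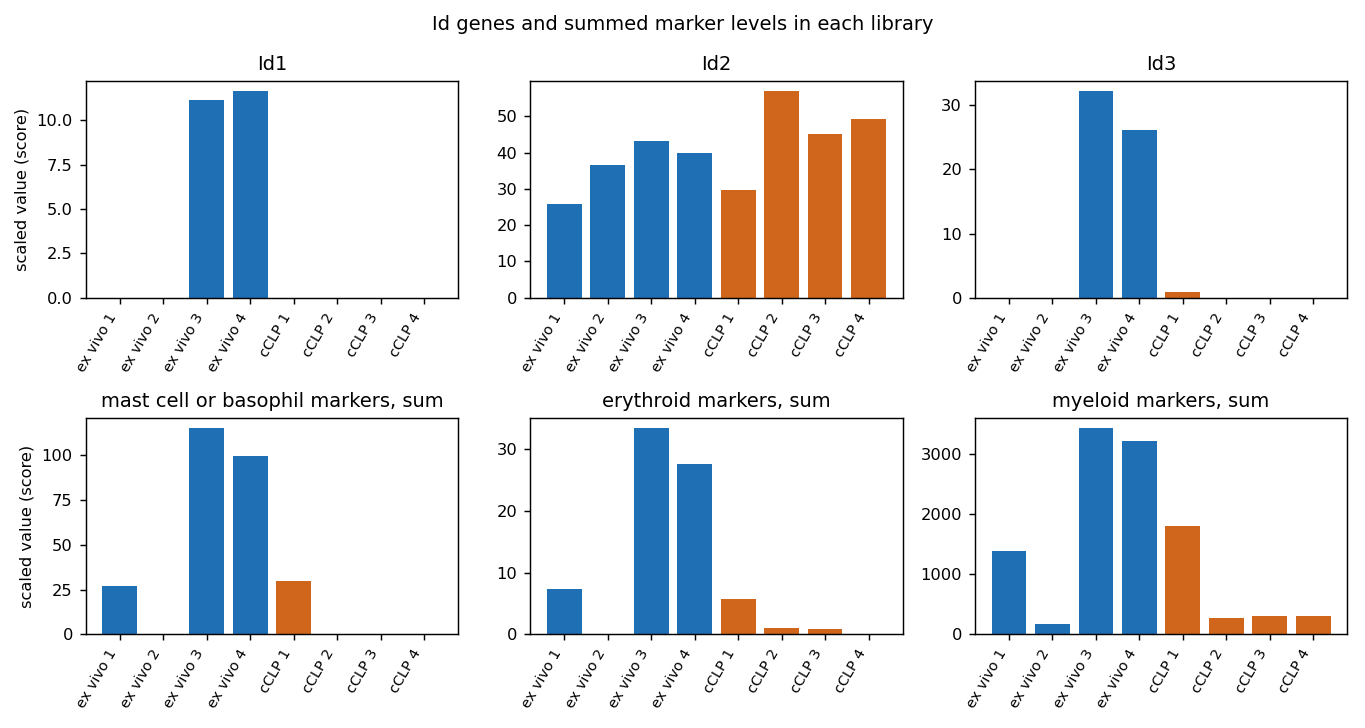
Scaled value (score, vertical axis from 0) of Id1, Id2 and Id3 and the summed scaled values of the mast cell or basophil, erythroid and myeloid marker lists in each library; blue bars are ex vivo CLP and orange bars cCLP. Id1 and Id3 stand in ex vivo CLP 3 and 4, the libraries in which all of these marker sums, and some not drawn, are highest.

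Summed mast cell and basophil, erythroid and myeloid markers were also highest in ex vivo CLP 3 and 4. This was not particular to these lists. Sums of plasmacytoid (609 and 621) and conventional dendritic cell (151 and 142) markers were highest in the same libraries. So were those of megakaryocyte (13.6 and 12.4) and endothelial (56.9 and 59.6) markers. Of the erythroid markers, 3 of 8 exceeded ex vivo CLP 1 (taken as at least 1) more than 1.5-fold in both ex vivo CLP 3 and 4. The 6 mast cell and basophil markers summed to 115 and 99.5 there, to 27.0 in ex vivo CLP 1, to 29.7 in cCLP 1 and to 0 in ex vivo CLP 2 and cCLP 2 to 4. The 8 erythroid markers summed to 33.4 and 27.6 there, to 7.36 in ex vivo CLP 1, to 5.74 in cCLP 1 and to no more than 1.05 elsewhere. The 11 myeloid markers summed to 3427 and 3216 there, to 1383 in ex vivo CLP 1, to 1799 in cCLP 1 and to 172.5 to 307 in ex vivo CLP 2 and cCLP 2 to 4. Within the myeloid list S100a8 was at 234 in ex vivo CLP 1, 298 in ex vivo CLP 3 and 214 in ex vivo CLP 4. Hes1, a Notch target, reached 39.6 and 39.2 in ex vivo CLP 3 and 4, against 8.58 (ex vivo CLP 1) and 14.3 (cCLP 1). It was picked after its values were seen. Unlike Id1 and Id3, these marker sums and Hes1 were above 0 in ex vivo CLP 1. The part of other cells in the Id1 and Id3 values was not tested. In such bulk libraries fewer cells of a type and less RNA per cell cannot be told apart.

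Lmo2 (ENSMUSG00000032698, GRCm38 chromosome 2, 103957986 to 103981878) encodes the LIM-only bridging protein. It was at 191, 101, 235 and 227 in the ex vivo libraries and at 227, 87.4, 82.6 and 94.2 in the cCLP libraries. Apart from ex vivo CLP 2 and cCLP 1, which changed places, every ex vivo library was above every cCLP library. Lmo2 fell over the 6 libraries from 217.6 ± 23.2 (SD, n = 3) to 88.1 ± 5.84, or by 1.29 ± 0.11 on the log2 scale (SE, limma adjusted p = 5.73e-05, lower in 3 of 3 libraries). Over the 8 as labelled the change was -0.68 ± 0.38 (adjusted p = 0.484).

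Lyl1 (ENSMUSG00000034041, chromosome 8, 84701457 to 84704715) encodes a partner of E proteins needed by lymphoid-primed progenitors. It was at 98.1, 143, 86.5 and 84.3 in the ex vivo libraries and at 105, 145, 159 and 164 in the cCLP libraries. Here too ex vivo CLP 2 and cCLP 1 changed places. Lyl1 rose over the 6 libraries from 89.6 ± 7.40 (SD, n = 3) to 156 ± 9.69, or by 0.80 ± 0.10 on the log2 scale (SE, limma adjusted p = 0.000528). Its relative Tal1, the partner better known from red cell and stem cell development, went the other way at low level. Tal1 was listed at 6, 2, 7 and 11 in the ex vivo libraries and at 9, 3, 3 and 3 in the cCLP libraries, with the same exchange of the 2 libraries. It did not pass the filter. Without a filter it was called lower over the 6 libraries (log2 fold change -1.22 ± 0.13 SE, limma adjusted p = 0.000287). Its exact two-sided permutation p was 0.1, the smallest that 3 libraries against 3 allow, and 0.457 over the 8 libraries.

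Ldb1 (ENSMUSG00000025223, chromosome 19, 46031570 to 46045214) encodes the adaptor that joins LMO proteins into larger complexes. It was at 79.7, 96.2, 66.8 and 78.5 in the ex vivo libraries and at 77.5, 113, 113 and 107 in the cCLP libraries. Ex vivo CLP 2 lay between the groups and cCLP 1 with the ex vivo libraries. Without ex vivo CLP 2 and cCLP 1 it rose from 74.97 ± 7.14 (SD, n = 3) to 111 ± 3.51, or by 0.56 ± 0.10 on the log2 scale (SE, limma adjusted p = 0.00297), against 0.35 ± 0.16 over all 8 (adjusted p = 0.484). Ldb1 shares 177 exonic bases with Pprc1, and Lyl1 4 with Nfix, both on the opposite strand. The strand setting of the counting is not given in the sources used here, and Pprc1 and Nfix were listed at no more than 7 in any library.

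**Figure D3:**
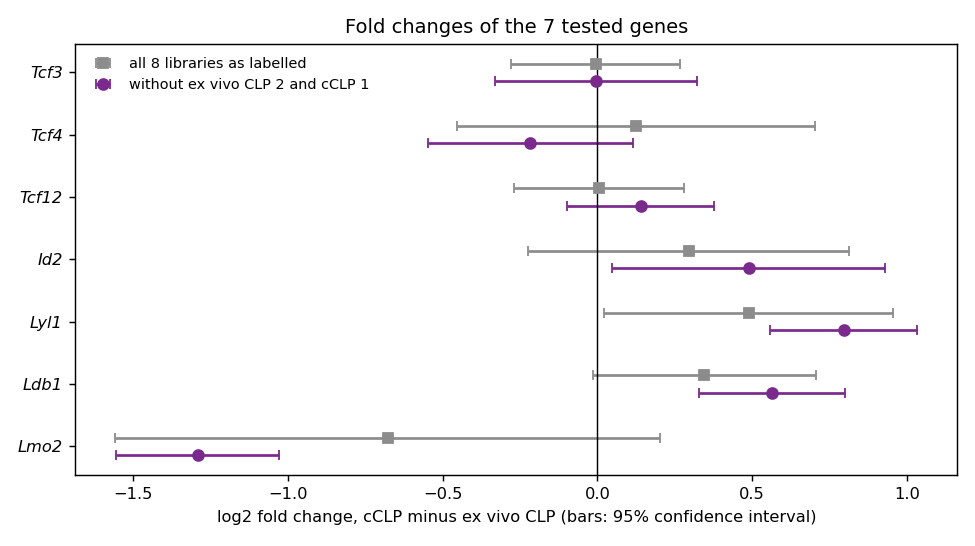
Log2 fold change (horizontal axis, cCLP minus ex vivo CLP, on the log2(scaled value + 1) scale) of the 7 tested genes with 95% confidence intervals from limma; grey squares use all 8 libraries as labelled and purple circles the 6 without ex vivo CLP 2 and cCLP 1. Over the 6 libraries the intervals of Lyl1 and Ldb1 lie above 0 and that of Lmo2 below it, at -1.29, while Tcf3 stays at 0.

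The order of scaled levels differed accordingly, read under the limit on per-length scores given above. In ex vivo CLP 1, 3 and 4 the order was Lmo2, Lyl1, Ldb1, Tcf3, Id2, Tcf4, Id3, Tcf12, Tal1 and Id1. The ranges of neighbours from Tcf3 to Tcf12, and those of Tal1 and Id1, overlapped. In cCLP 2 to 4 the order was Lyl1, Ldb1, Lmo2, Id2, Tcf3, Tcf4, Tcf12 and Tal1, with Id1 and Id3 listed at 0, and of the neighbours above 0 only the ranges of Id2 and Tcf3 overlapped. Lmo2, Lyl1 and Ldb1 thus took the top 3 places in both, with Lmo2 first in the former and behind the other two in the latter. In ex vivo CLP 2 Lyl1 was highest and in cCLP 1 Lmo2 was.

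Other genes of the LMO2 complex changed in both directions over the 6 libraries. Of 21 listed partners and LIM-only genes, 12 were tested, 6 were called higher and 4 lower, against 20.9% and 22.2% of all genes, with a median log2 fold change of 0.33 against 0.0052 over all genes. Of the 12, 2 (Ssbp3 and Runx1) entered the test through a single group, so the count partly follows from the filter. The largest rise was that of Lmo1, the LIM-only relative of Lmo2. Lmo1 was at 4.90, 25.4, 13.6 and 10.2 in the ex vivo libraries and at 10.5, 36.9, 40.3 and 45.8 in the cCLP libraries. In the 6 libraries it rose with a log2 fold change of 2.08 ± 0.30 (SE, limma adjusted p = 0.00109), while over the 8 it was 1.26 ± 0.56 (adjusted p = 0.484). The log2 ratio of Lmo1 to Lmo2, chosen after the values were seen, went from -4.45 ± 0.49 (SD, n = 3) to -1.09 ± 0.12, with ex vivo CLP 2 at -1.94 and cCLP 1 at -4.31.

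Gfi1b, a transcriptional repressor needed for red cell and platelet development, also rose (1.05 ± 0.28 SE, limma adjusted p = 0.0189). Ssbp2, a single-stranded DNA-binding partner of LDB1 named after its values were seen, rose as well (0.99 ± 0.15, adjusted p = 0.00130, by limma over the 6 libraries). Its relative Ssbp3 ranged from 6.18 to 8.72 over ex vivo CLP 1, 3 and 4 and from 12.5 to 12.7 over cCLP 2 to 4, so the filter fixed its direction. Fli1 and Kdm5a were the other members of the list called higher. The largest falls were those of Erg, an ETS factor of stem and progenitor cells, and Lmo4, another LIM-only gene. Erg fell by 1.26 ± 0.14 on the log2 scale (adjusted p = 0.000204) and Lmo4 by 0.91 ± 0.10 (adjusted p = 0.000211). Runx1 and Cbfb, which encode a DNA-binding factor and its cofactor, were the other genes called lower, and Runx1 was below 10 in each of cCLP 2 to 4, so the filter fixed its direction. The GATA partners were low throughout: Gata1 and Gata3 were listed at no more than 1 in any library, and Gata2 had scores of 1, 0, 4 and 9 in the ex vivo libraries and 5, 0, 0 and 0 in the cultured ones. Ldb2 and Lmo3 were listed at 0 in all 8.

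**Figure D4:**
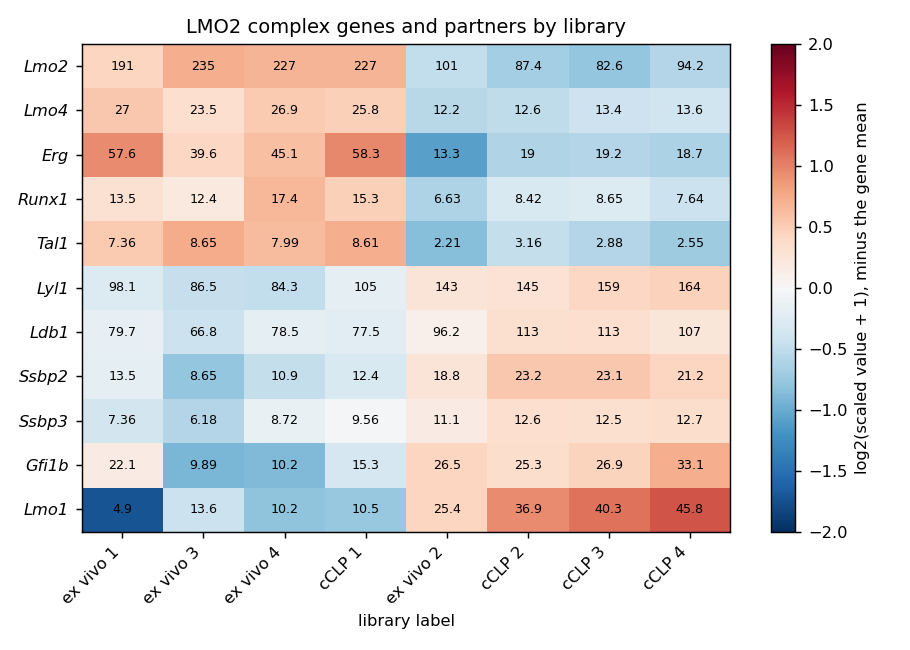
Log2(scaled value + 1) of 11 genes of the LMO2 complex and its partners, minus the gene's mean over the 8 libraries (colour), with the scaled value printed in each cell; columns are libraries by label, ordered so that cCLP 1 stands beside ex vivo CLP 1, 3 and 4 and ex vivo CLP 2 beside cCLP 2 to 4. Lmo2, Lmo4, Erg, Runx1 and Tal1 are higher in the left 4 columns and Lmo1, Ldb1, Lyl1, Ssbp2, Ssbp3 and Gfi1b in the right 4. The 11 genes were chosen with the values known. Partners not drawn include Ssbp1 and Ssbp4, which were tested but not called over the 6 libraries.

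Mast cell and erythroid markers were lower where Lmo2 and Tal1 were, and megakaryocyte markers overlapped. In cCLP 2 to 4 all 6 mast cell and basophil markers and 6 of 8 erythroid markers were listed at 0 but not in all of ex vivo CLP 1, 3 and 4. The 6 megakaryocyte markers summed to 6.13 to 13.6 in ex vivo CLP 1, 3 and 4 and to 4.80 to 7.64 in cCLP 2 to 4, with Gp1bb and Vwf at 0 in all libraries. Gp9 among them went the other way, from 3.63 to 3.71 and from 4.80 to 7.64. Of the 5 endothelial markers Cdh5 and Kdr were at 0 in all libraries, and of the 9 stromal markers 7 were, which leaves Vcam1 and Pdgfrb. Between ex vivo CLP 1 and ex vivo CLP 3 and 4 the erythroid sum differed (7.36 against 33.4 and 27.6) while Tal1 lay between 7.36 and 8.65 and Lmo2 between 191 and 235. The part of these cells in the fall of Lmo2 was not tested.

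Genes known as targets of these factors also went both ways. Of 38 listed E protein targets of lymphoid cells, 13 were tested over the 6 libraries, 6 were higher and 5 lower, against 20.9% and 22.2% of all genes (median log2 fold change 0.39). Of the 13, 5 entered the test through a single group, Rag1, Ccr9, Socs3 and Cd79b among them, so the filter fixed their direction and they are given as values without a test. Rag1, which encodes part of the recombinase that assembles antigen receptors, ranged from 1.24 to 8.58 over ex vivo CLP 1, 3 and 4 and from 270 to 332 over cCLP 2 to 4, and the chemokine receptor gene Ccr9 from 4.36 to 8.58 and from 232 to 260. Socs3, an inhibitor of cytokine signals, ranged from 19.6 to 38.5 over the former and from 0.849 to 1.05 over the latter, and Cd79b, a B cell receptor subunit, from 31.2 to 39.2 and from 1.05 to 3.40. The called targets that reached 10 in both groups were named after their values were seen. Of these, Dntt (log2 fold change -3.25 ± 0.48 SE, limma adjusted p = 0.00157) and Cxcr4 (-1.84 ± 0.19, adjusted p = 0.000176) fell. Rag2 (3.26 ± 0.53, adjusted p = 0.00273), Il7r (2.86 ± 0.52, adjusted p = 0.00456), Ets1 and Cdk6 rose. Ebf1 and Pax5, the B lineage factors that act with E proteins, were low and were not tested. Ebf1 was listed at 1, 8, 0 and 0 in the ex vivo libraries and at 1, 7, 6 and 9 in the cCLP libraries. Pax5 was listed at 0, 2, 0 and 0 in the ex vivo libraries and at 0, 1, 1 and 2 in the cCLP libraries.

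Of 34 listed LMO2 and TAL1 targets, 13 were tested, 5 were higher and 6 lower, against 20.9% and 22.2% of all genes (median -0.027). Of the 13, 3 entered the test through a single group, Ccr9 and Nfe2 among them. Nfe2, a factor of red cells and platelets, ranged from 27.0 to 33.4 over ex vivo CLP 1, 3 and 4 and from 3.16 to 4.24 over cCLP 2 to 4, so the filter fixed its direction. Myb, a progenitor transcription factor, rose (0.87 ± 0.14 SE, limma adjusted p = 0.00148). Cd34, a stem and progenitor surface protein, ranged from 634 to 804 and from 93.2 to 128, and fell by 2.67 ± 0.16 on the log2 scale (adjusted p = 5.31e-06). Over the 8 libraries as labelled 0 genes of any list were called by limma. Of 27 other Id and tissue-restricted helix-loop-helix genes, 26 were listed at 0 in all libraries and Bhlha15 at 1 in cCLP 1.

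Genes that induce Id genes or control the turnover of their products gave 4 higher and 4 lower of 13 tested over the 6 libraries, of 23 listed, against 20.9% and 22.2% of all genes (median -0.074). Without cCLP 2, 5 in place of 8 were called. Smad3, a transducer of transforming growth factor beta, rose (0.96 ± 0.17 SE, limma adjusted p = 0.00254), as did Egr1, an immediate early factor that can induce Id3 in thymocytes (0.85 ± 0.22, adjusted p = 0.0169). Over the 8 libraries as labelled Egr1 was not called (0.91 ± 0.19 SE, limma adjusted p = 0.484). Its groups did not overlap there (11.1 to 19.6 ex vivo, 25.0 to 36.9 in cCLP), as for 3.48% of all genes, so it followed the labels. Smad7, an inhibitory SMAD, fell (-0.79 ± 0.24, adjusted p = 0.0323). Stat5a, a transducer of IL-7 signals, ranged from 11.1 to 14.5 over ex vivo CLP 1, 3 and 4 and from 7.37 to 7.68 over cCLP 2 to 4, so the filter fixed its direction. The ex vivo libraries 1, 3 and 4 had Smad7 at 15.9, 27.2 and 34.9, and those numbered 2 to 4 of cCLP ranged from 13.6 to 14.4. The bone morphogenetic protein receptor genes Bmpr1a and Bmpr1b were listed at 0 in all libraries and Bmpr2 at 2 to 5. Other receptor genes of the list were above 0 in some libraries. Eng was listed at 8, 0, 5 and 16 in the ex vivo libraries and at 13, 0, 0 and 0 in the cCLP libraries. Acvr1 was at 1, 0, 1 and 2 and at 1, 0, 0 and 0, and Acvrl1 at 0, 0, 1 and 2 and at 1, 0, 0 and 0.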

How the data were processed

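Total RNA (100 ng) from sorted cells was sequenced as stranded, ribosomal RNA-depleted libraries with paired reads of 75 nt, per the labels' protocols. TopHat2, Bowtie2 and HTSeq 1.0.6 with GRCm38 (mm10) are named in the submitters' processing notes. The role of each, the strand setting and any scaling are not given in the sources used here. Each deposited table holds 1 score (whole number) for every Ensembl ID. Of 39179 IDs, 37693 matched GENCODE vM21, which gave symbols and positions.

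Scores were divided by library factors (trimmed means of log ratios, 30% of ratios and 5% of levels trimmed, geometric mean 1). For genes at a scaled value of 10 or more in at least n libraries, n being the smaller group's size, limma 3.58.1 (R 4.3.3; mean-variance trend, robust moderation) compared the groups on log2(scaled value + 1). Two-sided p-values were adjusted over all genes tested. Fold changes on this scale understate those of low genes. The model was tested on simulated data. Alternatives were other scalings, filters, pseudocounts, protein-coding genes, moderation, a replicate block and leaving out libraries. Count models were not used.

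The members and gene lists were chosen with earlier results of these data known. Named genes were the members, the 2 largest rises and falls called in each list, set partners below the filter and the gene most like each tested member. Tables used Python 3.11.15, pandas 2.3.3, NumPy 2.4.6 and SciPy 1.17.1.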

Additional observations from a re-analysis of the deposited data

Results flagged for a closer look

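In 3 of 19 sets of 4 libraries, 1 library lay far from the other 3 of its label, and in each it was cCLP 1. The cut-off used marks about 1 in 20 sets of independent normal values. The sets here share cCLP 1, so that rate does not apply and 3 of 19 is no measure of chance. For Lmo2 the scaled value of cCLP 1 was 226.7, and the gap to the nearest other cCLP library made up 0.919 of the range of the group. For Tal1 the value was 8.61 and the gap 0.899 of the range. For Id3 it was 0.956 against 0 in the other cCLP libraries, so the gap was the whole range (1), and a listed score of 1 is the smallest step of the scale. The profile of cCLP 1 as a whole lay with ex vivo CLP 1, 3 and 4.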

How the results depend on the processing

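Over the 8 libraries no member and no gene was called under any setting that kept both ex vivo CLP 2 and cCLP 1 or left out 1 library. Without both, 1371 genes were higher, 1459 lower, 2 members higher and 1 lower, and Tcf4 turned to -0.22. Over the 6 libraries Lmo2 (-1.38 to -1.23), Lyl1 (0.75 to 0.91) and Ldb1 (0.48 to 0.62) kept direction and call under all 16 alternatives. Without a filter, of 13755 genes 2236 were higher and 2766 lower, with 23 E protein targets (11 with the filter) and 18 LMO2 and TAL1 targets (11), and 2 members were lower, as with a filter at 3, by the addition of Tal1. With 1 library left out, 888 to 1567 genes were higher (888 without cCLP 4) and 1 to 3 members lower (3 without ex vivo CLP 1, by Id1 and Id3). The scaling turned the sign of log2 fold changes near 0. Over 8 libraries these were Tcf12 (-0.0052 with relative log expression) and Tcf3 (0.023 with the upper quartile, 0.036 with totals), and over 6 Tcf3 (0.050 and 0.034). Leaving out 1 library gave -0.093 to 0.065 for Tcf3, -0.036 to 0.076 for Tcf12 and -0.11 to 0.29 for Tcf4 over 8 libraries, -0.13 to 0.097 for Tcf3 over 6, and -0.052 to 0.47 for the change of the log2 Id2 to Tcf4 ratio over 8. With the replicate number as a block, 1229 genes were higher and 1271 lower over 6 libraries and 0 over 8, with the calls of members unchanged (Lmo2 -1.38, Lyl1 0.91, Ldb1 0.60). Over the 6, only numbers 3 and 4 occur in both groups. The blocked contrast there rests on those libraries alone, and its calls are a weak check. Deviations from the labelled group means of same-numbered libraries correlated at 0.595, 0.843, -0.575 and -0.86. These signs follow from ex vivo CLP 2 and cCLP 1 lying with the other group, so they cannot decide whether the numbers are pairs. No label gave an animal, and the numbers were not taken as pairs. The causes of these shifts were not tested. Scores give no depth, and values of 1 to 3, as for Tal1, carry coarse rounding.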

Other observations

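Of 17 listed coregulators of E proteins and TAL1 (acetyltransferases, deacetylases and methyltransferases), 12 were tested over the 6 libraries, and 3 were called, against 43.1% of all genes. Prmt5, an arginine methyltransferase, and Hdac2, a deacetylase, rose, from 28.8 to 45.6 and from 42.4 to 56.3 in mean scaled value (n = 3; limma log2 fold changes 0.66 ± 0.13 and 0.41 ± 0.11 SE, adjusted p = 0.00503 and 0.0162). Kat2b, an acetyltransferase, fell from 14.5 to 10.4 (-0.44 ± 0.11, adjusted p = 0.0111). Over the 8 libraries as labelled none of them was called, and without cCLP 3, 1 of the list was called over the remaining 5 in place of 3. For Prmt5 the groups did not overlap over the 8 (23.5 to 36.5 ex vivo, 39.2 to 47.1 in cCLP), as for 3.48% of all genes.

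The genes whose log2 scaled values were most like those of each tested member over the 8 libraries were, among 6485 others, Cenpm for Lmo2 (Pearson's r 0.998), Zfyve1 for Ldb1 (0.992), Sept9 for Lyl1 (0.992), Abca2 for Tcf4 (0.9751), Map2k2 for Tcf3 (0.970), Akirin1 for Tcf12 (0.942) and Zmynd8 for Id2 (0.940). The 8 libraries fall into 2 sets by profile, which the first 3 members follow, so likeness is given as a description without a test.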
